A study of Homo sapiens with 6 samples.

Results

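Keratins are the intermediate filament proteins of epithelial cells. A keratin filament is built from pairs of an acidic type I and a basic type II keratin, and the type II genes lie in a cluster on chromosome 12 and most type I genes in a cluster on chromosome 17. In the prostate, KRT8 and KRT18 mark the luminal secretory cells and KRT5 and KRT14 the basal cells, while other members belong to stratified epithelia, to injured skin or to hair. The family was taken as every gene entry whose symbol is KRT followed by a number and, where present, a letter from A to C, which excludes the keratin-associated proteins. This gave 55 of the 24000 entries listed, of which 28 are type I, 26 are type II and KRT222 is keratin-like. The table places 28 members on chromosome 17 and 27 on chromosome 12, where KRT18 was the 1 type I gene.

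The tumors were grown from PC-3, an androgen-independent line of human prostate cancer, in nude mice, whose lack of a thymus leaves them without mature T cells. RNA was sequenced from 3 tumors of mice given Vehicle and 3 tumors of mice given WCE, a standardized extract of the herb Wedelia chinensis, and the labels give 10 weeks of treatment and no dose. The labels give 1 cell line for all 6 and describe them as individual tumors. Levels are in FPKM, a count of sequenced fragments divided by transcript length and by library size, so they can be compared between genes. Absolute depth is unknown, and read from the steps of the low values the depth of the other tumors was 25.0% to 85.2% of that of Vehicle 3, with WCE 1 the shallowest. In tumor tissue, fewer cells of a type and less RNA per cell cannot be told apart.

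A pair of libraries with different labels, Vehicle 3 and WCE 1, held nearly the same values. Over the 17 keratins with a mean of at least 5 FPKM, their median absolute log2 difference was 0.0267 and their largest was 0.152. For the other 14 pairs of tumors the median was 0.194 to 0.863 and the largest difference 1.11 to 4.78. Of the 34 keratins above 0 in WCE 1, 0 were at 0 in Vehicle 3, and 5 more were above 0 in Vehicle 3. The labels describe these columns as individual tumors, while their values nearly coincide, and the cause was not tested. If both columns hold 1 tumor, fewer than 6 tumors stand behind the comparison. Group differences are therefore given for all 6 tumors as labelled and, for every tested keratin in the plot of fold changes and otherwise where named, again without these 2 libraries.

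Levels in the family differed widely. Of the 55 keratins, 6 had a mean of at least 100 FPKM over the tumors (KRT19, KRT81, KRT7, KRT18, KRT8 and KRT75), 11 had a mean from 5 to 100 and 4 from 0.5 to 5. Another 26 were above 0 with a mean below 0.5, and 8 were at 0 in every tumor. All 5 simple keratins and all 4 basal keratins passed the mean of 0.5 FPKM set for testing, against 3 of 4 keratins of injured epithelium, 5 of 15 suprabasal and other epithelial keratins, 1 of 9 keratins of the inner root sheath and companion layer, and 3 of 17 hair keratins. The members summed to 2035, 2782 and 3013 FPKM in Vehicle 1 to 3 and to 3027, 1976 and 2309 FPKM in WCE 1 to 3, which was 0.302% to 0.488% of all FPKM listed for a tumor.

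**Figure D1:**
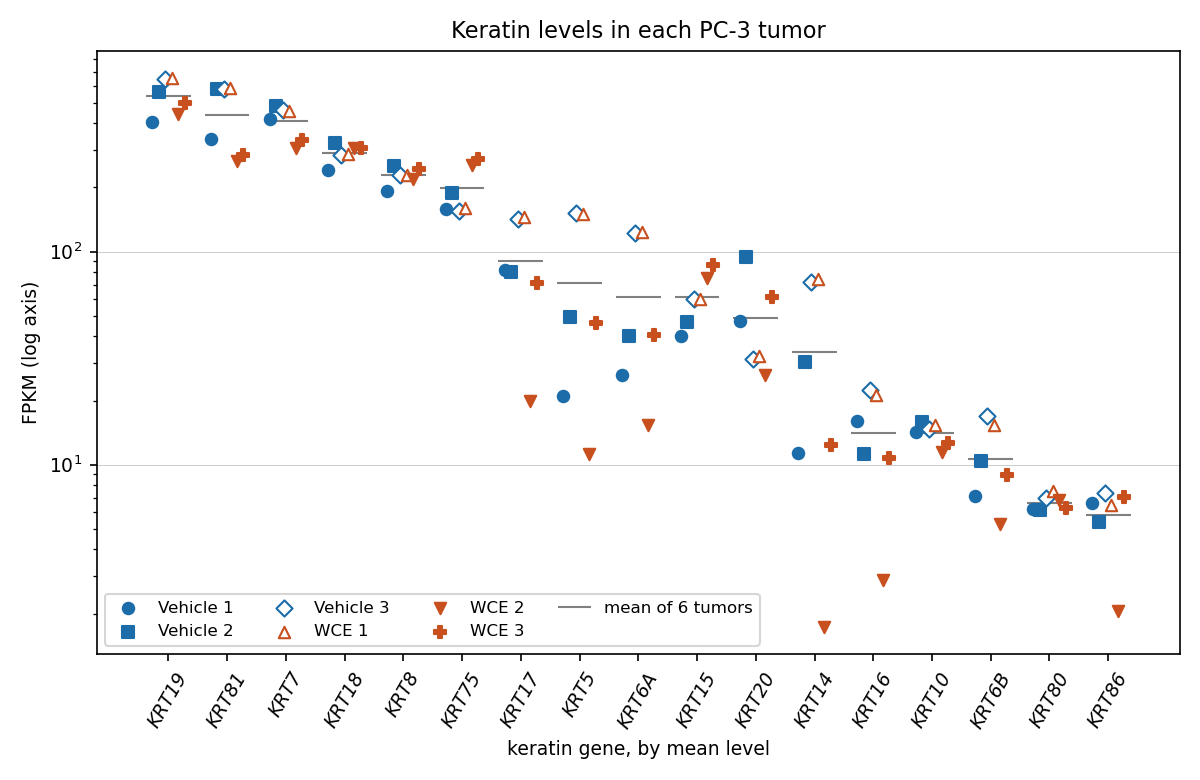
Level of each of the 17 keratins with a mean of at least 5 FPKM in each tumor, in FPKM on a log axis, with genes ordered by their mean over the 6 tumors (grey lines). Open symbols mark Vehicle 3 and WCE 1, which nearly coincide for every gene, and the tumors lie close together for KRT80 (6.11 to 7.50 FPKM) and far apart for KRT14 (1.74 to 74.1 FPKM).

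The luminal markers were high in every tumor. KRT18, the type I partner of simple epithelial filaments, stood at 241, 322 and 285 FPKM in Vehicle 1 to 3 and at 287, 308 and 307 FPKM in WCE 1 to 3. KRT8, its type II partner, stood at 192, 253 and 228 FPKM in the Vehicle tumors and at 230, 219 and 245 FPKM in the WCE tumors. For both genes the WCE values lay inside the Vehicle range, and the log2 fold change of WCE against Vehicle was 0.10 (SE 0.12, adjusted p = 0.801) for KRT18 and 0.05 (SE 0.12, adjusted p = 0.911) for KRT8 by limma. These partners kept a narrow ratio, with 1.25, 1.27 and 1.25 KRT18 for each KRT8 in Vehicle 1 to 3 and 1.25, 1.40 and 1.26 in WCE 1 to 3. The log2 ratio differed by 0.050 between the groups, and an exact two-sided permutation test gave p = 0.6, where 3 against 3 tumors cannot give less than 0.1. The table lists KRT8 and KRT18 under 1 joint locus (hg19, chr12:53290971-53346685), and both genes have processed pseudogenes that can share reads with them.

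The remaining simple keratins mark ducts, glands and the gut. KRT19, the smallest keratin and a marker of ductal epithelia, was the most abundant member by its mean, with 407, 561 and 648 FPKM in Vehicle 1 to 3 and 652, 443 and 498 FPKM in WCE 1 to 3. Its groups overlapped almost completely, and its share of the keratin total moved only from 19.99% to 22.4% between tumors. KRT7, the type II keratin of glandular and ductal epithelia, stood at 418, 482 and 461 FPKM in the Vehicle tumors and at 455, 305 and 334 FPKM in the WCE tumors. WCE 2 and WCE 3 were below every Vehicle tumor while WCE 1 lay within the Vehicle range, and the log2 fold change was -0.33 (SE 0.16, adjusted p = 0.623 by limma with Benjamini-Hochberg adjustment). KRT20, a keratin of intestinal epithelium and of the urothelial surface, followed neither group, with 47.3, 94.6 and 31.3 FPKM in Vehicle 1 to 3 and 32.2, 26.4 and 61.3 FPKM in WCE 1 to 3. Its highest value was in Vehicle 2 and its lowest in WCE 2, and the log2 fold change was -0.46 (SE 0.43, adjusted p = 0.729).

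KRT15 had the smallest p-value of the family. It is a type I keratin of the basal layer and of the hair follicle bulge, and the table lists it at hg19 chr17:39669997-39675270. Its level was 40.4, 46.6 and 60.108 FPKM in Vehicle 1 to 3 and 60.122, 74.95 and 86.2 FPKM in WCE 1 to 3. The groups did not overlap, but the gap between them lay between Vehicle 3 and WCE 1, the nearly identical libraries. The group means were 49.0 ± 10.1 FPKM in Vehicle and 73.8 ± 13.1 FPKM in WCE (SD, n = 3). The log2 fold change was 0.58 (SE 0.18, adjusted p = 0.623) by limma with Benjamini-Hochberg adjustment over all 13287 entries tested. Without Vehicle 3 and WCE 1 it was 0.87 (SE 0.13, adjusted p = 0.173).

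The other basal keratins varied far more between tumors. KRT5, the type II keratin of basal cells, stood at 20.9, 49.2 and 152 FPKM in Vehicle 1 to 3 and at 149, 11.2 and 46.3 FPKM in WCE 1 to 3. KRT14, its type I partner, stood at 11.3, 30.5 and 72.1 FPKM in the Vehicle tumors and at 74.1, 1.74 and 12.3 FPKM in the WCE tumors. KRT17, a type I keratin of basal cells and skin appendages that is also induced by injury, stood at 81.8, 80.5 and 142 FPKM in the Vehicle tumors and at 145, 19.9 and 71.2 FPKM in the WCE tumors. All 3 genes were highest in Vehicle 3 and WCE 1 and lowest in WCE 2, and both groups spanned wide ranges. The highest tumor exceeded the lowest 13.6-fold for KRT5, 42.7-fold for KRT14 and 7.30-fold for KRT17, against 2.13-fold for KRT15. By limma the log2 fold changes were -0.32 (SE 0.97, adjusted p = 0.937) for KRT5, -1.12 (SE 1.14, adjusted p = 0.752) for KRT14 and -0.71 (SE 0.63, adjusted p = 0.722) for KRT17. The ratio of KRT14 to KRT5 was 0.541, 0.620 and 0.475 in Vehicle 1 to 3 and 0.496, 0.155 and 0.266 in WCE 1 to 3. It was lower in WCE 2 and WCE 3 than in every Vehicle tumor. The ratio of KRT15 to KRT5 ran from 0.396 in Vehicle 3 to 6.70 in WCE 2.

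The keratins of injured and fast-growing epithelium kept the same extremes. KRT6A, a type II keratin induced in wounded epidermis, stood at 26.5, 40.2 and 122 FPKM in Vehicle 1 to 3 and at 124, 15.4 and 40.8 FPKM in WCE 1 to 3. KRT16, its usual type I partner, stood at 16.1, 11.2 and 22.5 FPKM in the Vehicle tumors and at 21.2, 2.89 and 10.8 FPKM in the WCE tumors. KRT6B, a close copy of KRT6A, stood at 7.15, 10.4 and 17.01 FPKM in the Vehicle tumors and at 15.4, 5.25 and 8.94 FPKM in the WCE tumors. Again Vehicle 3 and WCE 1 were the highest tumors and WCE 2 the lowest for each gene, and the groups overlapped. The log2 fold changes were -0.24 (SE 0.78, adjusted p = 0.943) for KRT6A, -0.76 (SE 0.58, adjusted p = 0.674) for KRT16 and -0.24 (SE 0.39, adjusted p = 0.855) for KRT6B by limma. KRT6C, the remaining copy, stayed between 0.027 and 0.132 FPKM and was not tested.

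Levels of such copies depend on how reads common to several of them were assigned. In the longest open reading frames of the GENCODE 29 transcripts, KRT6A, KRT6B and KRT6C each have 1695 coding bases, of which 52 differ among the 3. KRT6B and KRT6C were 98.47% identical, and 59.4% of the 50-base words of one occurred in the other, against 47.3% for KRT6A and KRT6C and 38.1% for KRT6A and KRT6B. The stretch of 60 bases in which the 3 copies differ most, coding bases 663 to 722, is shown because reads over it can tell the copies apart. Capitals mark the 9 positions that differ.
KRT6A: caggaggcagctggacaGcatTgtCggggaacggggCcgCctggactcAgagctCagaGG
KRT6B: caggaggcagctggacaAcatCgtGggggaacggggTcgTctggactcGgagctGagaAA
KRT6C: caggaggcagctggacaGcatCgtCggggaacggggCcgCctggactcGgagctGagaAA
At hg19 the table lists KRT6A at chr12:52880958-52887181 and KRT6B at chr12:52840435-52845910. The ratio of KRT6A to KRT6B was 3.71, 3.87 and 7.19 in Vehicle 1 to 3 and 8.03, 2.92 and 4.56 in WCE 1 to 3. The ratio was thus highest in the tumors with most KRT6A. KRT14 and KRT16 were 88.65% identical with 12.8% of the 50-base words of KRT14 in KRT16, and KRT5 and KRT6B were 83.74% identical with 4.76% of the words of KRT5 in KRT6B.

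**Figure D2:**
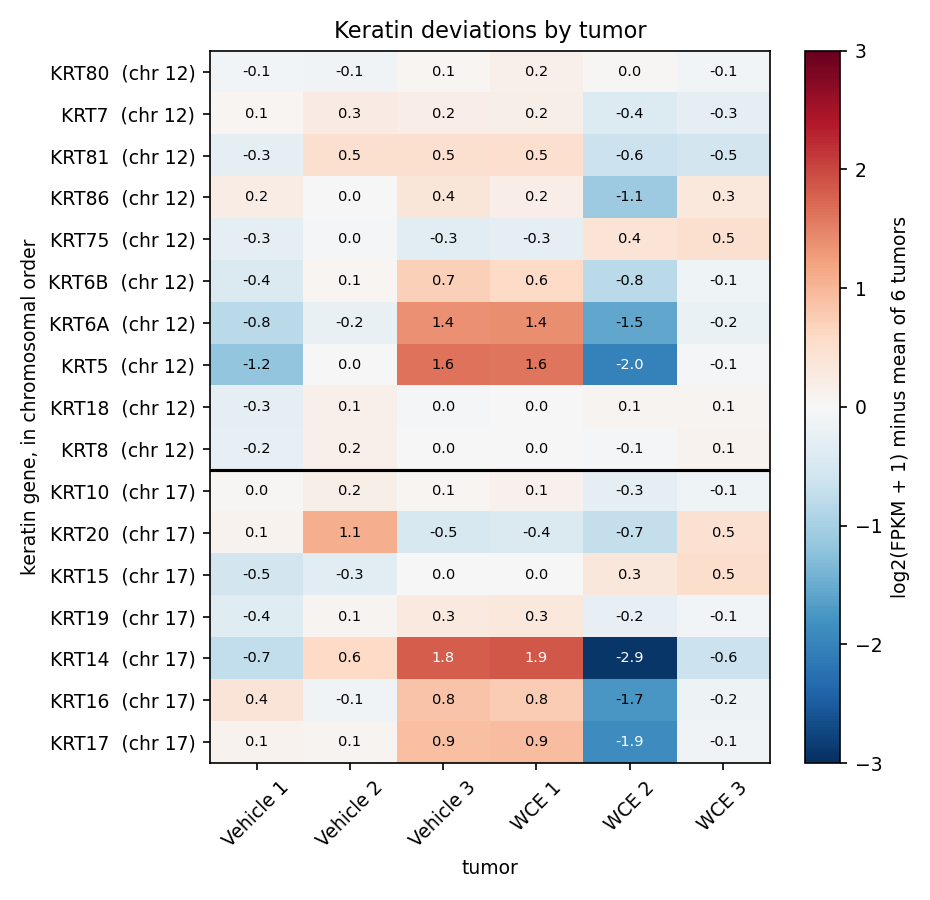
Deviation of each of the 17 keratins with a mean of at least 5 FPKM from its own mean over the 6 tumors, in log2(FPKM + 1), with a column for each tumor and genes in chromosomal order (chromosome 12 above the line, chromosome 17 below). KRT5, KRT6A, KRT6B, KRT14, KRT16 and KRT17 are high in Vehicle 3 and WCE 1 and low in WCE 2, while KRT8, KRT18, KRT10 and KRT80 stay near 0.

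Some neighbors in the clusters differed in their swings. On chromosome 17, KRT15 and KRT19 lie near KRT14, KRT16 and KRT17, yet KRT15 was higher in WCE 2 than in every Vehicle tumor, where the other 3 were at their lowest. On chromosome 12, KRT75 lies beside KRT6B, KRT6A and KRT5 and ran opposite to them in WCE 2. Over the 20 tested keratins above 0 in every tumor, the median ratio of the highest tumor to the lowest was 3.32, beside 1.44 over the 13178 tested entries above 0 in every tumor. Within groups, the median SD of log2(FPKM + 1) was 0.458 for the tested keratins and 0.161 for all tested entries. It was 1.92 for KRT14, 1.62 for KRT5 and 1.31 for KRT6A, and 0.15 for KRT8, KRT18 and KRT10.

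Among the 6 most abundant keratins were a hair keratin and a companion layer keratin. KRT81, a type II keratin of the hair cortex, stood at 337, 579 and 581 FPKM in Vehicle 1 to 3 and at 586, 265 and 284 FPKM in WCE 1 to 3. WCE 2 and WCE 3 were the lowest tumors, WCE 1 was the highest, and the log2 fold change was -0.45 (SE 0.34, adjusted p = 0.666) by limma. KRT75, a type II keratin of the companion layer around the hair shaft, stood at 159, 189 and 156 FPKM in the Vehicle tumors and at 160, 255 and 272 FPKM in the WCE tumors. WCE 2 and WCE 3 were above every Vehicle tumor while WCE 1 lay within their range, and the log2 fold change was 0.41 (SE 0.20, adjusted p = 0.623). The pair of genes kept a nearly fixed sum of 24.1% to 27.6% of the keratin total, with KRT81 at 12.3% to 20.8% and KRT75 at 5.16% to 12.9%.

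KRT81 has a close copy in KRT86, also a type II hair keratin, which stood at 6.64, 5.41 and 7.34 FPKM in Vehicle 1 to 3 and at 6.50, 2.05 and 7.03 FPKM in WCE 1 to 3. Its log2 fold change was -0.38 (SE 0.35, adjusted p = 0.727) by limma, with WCE 2 the lowest tumor. The coding sequences of KRT81 and KRT86 were 94.17% identical, and 49.1% of the 50-base words of KRT81 occurred in KRT86. The table lists KRT81 at hg19 chr12:52679697-52685299 and KRT86 at chr12:52695649-52702947. KRT81 exceeded KRT86 between 40.4-fold in WCE 3 and 129-fold in WCE 2. KRT75 shares 0 of its 50-base words with KRT5, with which it is 80.7% identical.

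Few other members of stratified epithelia were present. KRT10, the type I keratin of the suprabasal epidermis, stood at 14.3, 15.9 and 14.6 FPKM in Vehicle 1 to 3 and at 15.4, 11.4 and 12.6 FPKM in WCE 1 to 3, and its locus is shared with another entry of the table. KRT80, a type II epithelial keratin, was the steadiest member, with 6.197, 6.11 and 6.96 FPKM in the Vehicle tumors and 7.50, 6.80 and 6.26 FPKM in the WCE tumors. Both differed little between groups, with log2 fold changes of -0.18 (SE 0.12, adjusted p = 0.659) for KRT10 and 0.08 (SE 0.11, adjusted p = 0.817) for KRT80 by limma. The 4 keratins between 0.5 and 5 FPKM were KRT23 at 0.255 to 1.41, KRT79 at 0 to 1.21, KRT4 at 0.111 to 1.38 and KRT34 at 0.322 to 1.10 FPKM. KRT34, a type I hair keratin, was at 0.659 to 1.10 FPKM in the Vehicle tumors and at 0.322 to 0.609 FPKM in the WCE tumors. Its groups did not overlap, with a log2 fold change of -0.36 (SE 0.16, adjusted p = 0.623 by limma), but at such levels single reads move the value.

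The low and silent members were mostly hair, inner root sheath and epidermal keratins. Of the 34 untested keratins, 32 were below 0.5 FPKM in every tumor. The exceptions were KRT83, a hair keratin with up to 0.878 FPKM, and KRT13, the type I keratin of wet mucosa, with up to 0.517 FPKM. The 8 members at 0 in every tumor were KRT25, KRT26, KRT27, KRT28 and KRT73 of the inner root sheath, the hair keratins KRT31 and KRT35, and KRT77. Between 31 and 39 members were above 0 in a tumor, and 25 were above 0 in all 6. Without counts, a value of 0 means only that the gene is listed at 0.

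The keratin promoters at hand, most of them of low or silent members, often held a TATA-like motif. RefSeq windows from 250 bases before to 50 bases after the transcription start (GRCh38.p14) were at hand for 34 of the 55 keratins, in 38 windows. They cover only 8 of the 21 tested keratins and 26 of the 34 below the filter. The letters TATAAA or ATAAAA, which overlap in TATAAAA, were searched on both strands. At least one of them occurred in 29 of the 38 keratin windows (76.3%), beside 21.1% of the 35116 windows of all genes. TATAAA alone occurred in 55.3% of the keratin windows and 11.5% of all windows, and ATAAAA in 60.5% and 16.0%. By gene, the motifs were found in 6 of 8 tested keratins and in 23 of 26 keratins below the filter, on both sides of it. The 250 bases before the start are shown for KRT75 (chr12:52434372-52434621, minus strand) and KRT5 (chr12:52520395-52520644, minus strand), type II neighbors that ran opposite ways in WCE 2, with the motif in capitals.
KRT75: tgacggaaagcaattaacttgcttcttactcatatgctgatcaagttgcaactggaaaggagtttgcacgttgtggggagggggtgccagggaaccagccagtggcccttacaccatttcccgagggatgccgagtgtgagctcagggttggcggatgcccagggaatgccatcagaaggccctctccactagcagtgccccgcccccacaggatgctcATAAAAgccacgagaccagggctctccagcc
KRT5: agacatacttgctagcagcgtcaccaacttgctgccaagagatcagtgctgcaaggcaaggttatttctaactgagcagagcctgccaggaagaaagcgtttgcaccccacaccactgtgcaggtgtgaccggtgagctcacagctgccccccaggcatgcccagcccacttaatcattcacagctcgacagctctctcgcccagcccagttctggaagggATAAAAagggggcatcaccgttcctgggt
The motif begins 31 bases before the start in KRT75 and 29 bases before it in KRT5. A match of letters is a description of the sequence and not of a bound site.

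The make-up of the keratin total varied within both groups. The 5 simple keratins made up 64.2%, 61.6% and 54.9% of it in Vehicle 1 to 3 and 54.7%, 65.9% and 62.6% in WCE 1 to 3. KRT5, KRT14, KRT17, KRT6A, KRT6B, KRT6C and KRT16 together made up 8.05%, 7.98% and 17.5% in the Vehicle tumors and 17.5%, 2.85% and 8.25% in the WCE tumors. Vehicle 3 and WCE 1 thus had the largest basal and injury share, and WCE 2 the smallest. KRT15 made up 1.68% to 2.00% in the Vehicle tumors and in WCE 1, and 3.79% and 3.73% in WCE 2 and WCE 3. Summed type II keratins exceeded summed type I keratins 1.364-, 1.390- and 1.354-fold in Vehicle 1 to 3 and 1.346-, 1.221- and 1.174-fold in WCE 1 to 3. For this ratio the groups did not overlap, and the gap lay between Vehicle 3 and WCE 1.

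**Figure D3:**
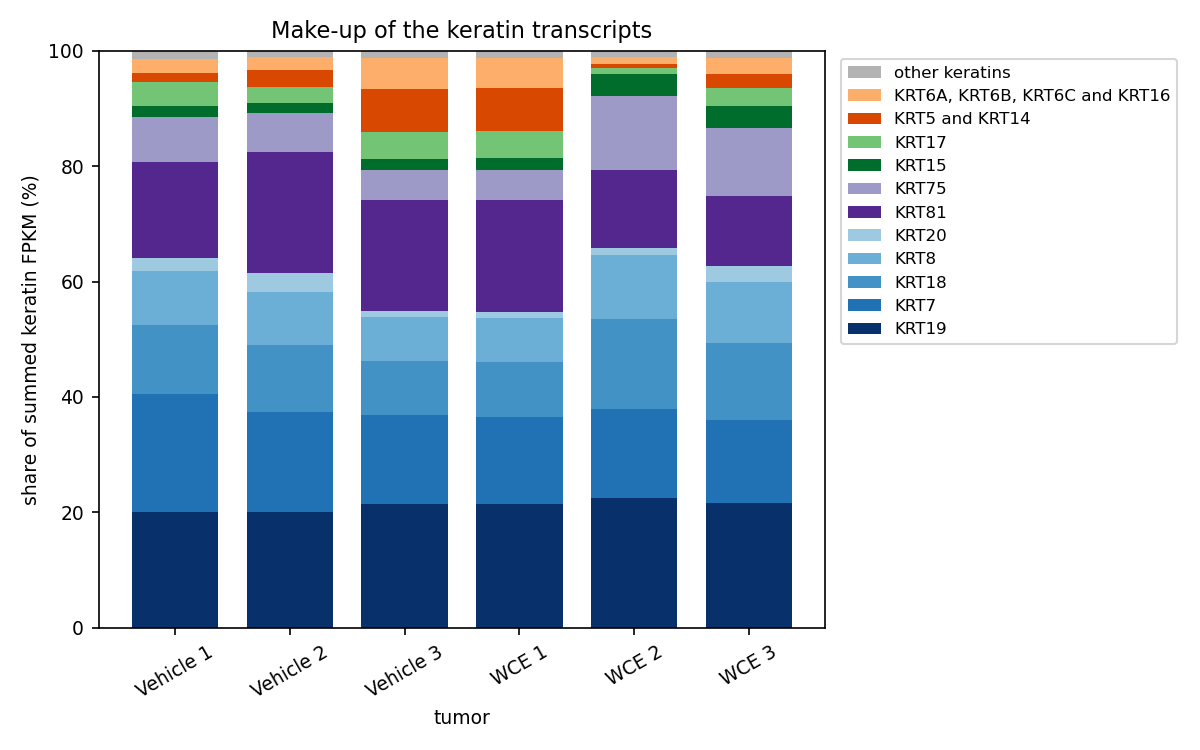
Share of each keratin or group of keratins in the summed keratin FPKM of each tumor, in percent, with a stacked bar for each tumor. The simple keratins (blue) fill 54.7% to 65.9% of every bar, KRT81 with KRT75 (purple) 24.1% to 27.6%, and the basal and injury keratins differ most between bars.

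For the comparison of WCE with Vehicle, 21 keratins were tested among the 13287 entries. At an unadjusted p under 0.05, limma called 1 of the 21 keratins (4.76%), KRT15, which was higher in WCE, where the background over all entries was 7.10%. After Benjamini-Hochberg adjustment 0 keratins passed 0.05, with a lowest adjusted p of 0.623, beside 1 entry of the whole table (0.00753%). The groups did not overlap for 2 of the 21 keratins, KRT15 and KRT34, beside 12.8% of all tested entries. The median log2 fold change was -0.24 over the tested keratins and -0.0063 over all tested entries, with 8 keratins higher and 13 lower in WCE. Single tumors turned this balance, with 15 higher and 6 lower without WCE 2 (median 0.084) and 12 higher and 9 lower without Vehicle 3 (median 0.067).

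Without Vehicle 3 and WCE 1, 4 of the 21 keratins had an unadjusted p under 0.05 by limma (19.05%), beside a background of 18.4%. KRT15 and KRT75 were higher in WCE 2 and WCE 3, with log2 fold changes of 0.87 (adjusted p = 0.173) and 0.60 (adjusted p = 0.179). KRT7 and KRT81 were lower, with -0.49 (adjusted p = 0.200) and -0.69 (adjusted p = 0.269). For KRT14, KRT17 and KRT16 the log2 fold changes were -1.71 (SE 0.83, adjusted p = 0.341), -1.08 (SE 0.56, adjusted p = 0.365) and -1.09 (SE 0.53, adjusted p = 0.339). Leaving out WCE 1 alone raised the calls to 8 of the 21 keratins (38.1%) beside a background of 15.3%, with KRT15 and KRT75 higher and KRT81, KRT7, KRT17, KRT14, KRT16 and KRT10 lower in WCE.

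**Figure D4:**
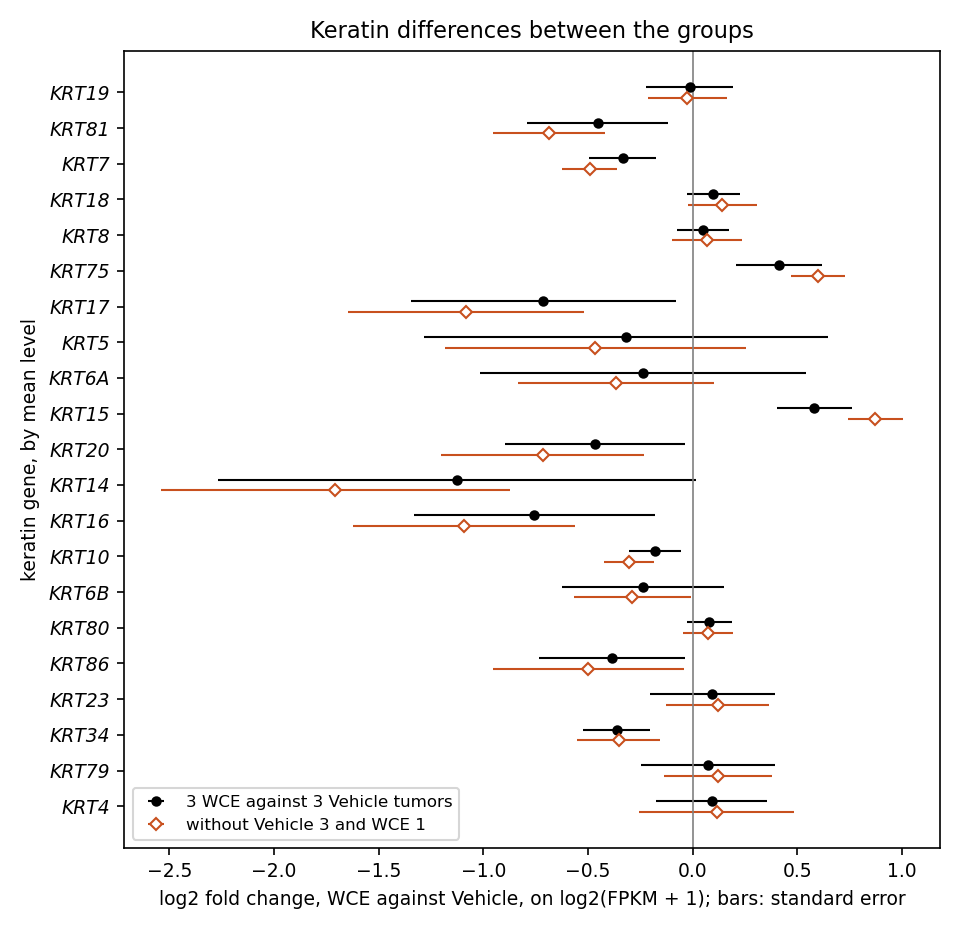
Log2 fold change of WCE against Vehicle for the 21 tested keratins on log2(FPKM + 1), with standard errors from limma as bars, for all 6 tumors (filled) and without Vehicle 3 and WCE 1 (open). KRT15 lies farthest above 0 (0.58 and 0.87), and KRT14 farthest below with the widest bars (-1.12 and -1.71).

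The 4 other lists held intermediate filament genes, keratin linkers, epithelial regulators and squamous genes, and not all of these act on keratins. Over the 4 lists, limma gave an unadjusted p under 0.05 to 6 of 63 tested genes (9.52%), beside a background of 7.10%. Without Vehicle 3 and WCE 1 the count was 20 (31.7%), beside 18.4%. Of 15 other intermediate filament genes, 9 were tested, and SYNM, which encodes synemin, was the 1 gene with an unadjusted p under 0.05 by limma. The median log2 fold change of the tested genes was 0.22, beside -0.0063 over all entries. SYNM stood at 5.07, 5.17 and 6.29 FPKM in Vehicle 1 to 3 and at 6.25, 9.21 and 6.93 FPKM in WCE 1 to 3. Its groups overlapped, with a log2 fold change of 0.37 (SE 0.15, adjusted p = 0.623, and 0.56 without Vehicle 3 and WCE 1). VIM, the vimentin gene of mesenchymal and many cultured cells, was the most abundant of the list, at 275 to 411 FPKM in the Vehicle tumors and 378 to 546 FPKM in the WCE tumors (log2 fold change 0.41, SE 0.19, adjusted p = 0.623, and 0.63 without Vehicle 3 and WCE 1). All 6 tumors thus held vimentin at the level of their main keratins.

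Among 18 linkers and binding proteins of keratins, 17 were tested and 2 had an unadjusted p under 0.05, both higher in WCE, with a median log2 fold change of 0.00041. PPL encodes periplakin, which ties keratin filaments to desmosomes, and stood at 7.80, 7.99 and 8.99298 FPKM in Vehicle 1 to 3 and at 8.99975, 16.5 and 12.8 FPKM in WCE 1 to 3 (log2 fold change 0.54, adjusted p = 0.623). PKP1 encodes the desmosomal plakophilin 1 and stood at 42.4, 70.2 and 81.8 FPKM in the Vehicle tumors and at 82.5, 106 and 104 FPKM in the WCE tumors (log2 fold change 0.63, adjusted p = 0.623). For both genes, as for KRT15, the groups were separated by the gap between Vehicle 3 and WCE 1, and without these libraries the log2 fold changes were 0.81 for PPL and 0.93 for PKP1. PNN was the most abundant of the list, at 88.2 to 95.2 FPKM in Vehicle and 87.2 to 134 FPKM in WCE.

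Of 25 regulators of epithelial and keratin genes, 23 were tested, with 1 higher and 1 lower in WCE at an unadjusted p under 0.05 and a median log2 fold change of -0.097. ZEB1, a repressor of epithelial genes, stood at 3.41, 5.17 and 4.86 FPKM in Vehicle 1 to 3 and at 5.20031, 9.71 and 8.31 FPKM in WCE 1 to 3 (log2 fold change 0.65, adjusted p = 0.623). OVOL2, which maintains the epithelial state, stood at 6.06, 5.75 and 4.47 FPKM in the Vehicle tumors and at 4.77, 2.60 and 2.90 FPKM in the WCE tumors (log2 fold change -0.56, adjusted p = 0.623). For both genes WCE 2 and WCE 3 lay outside the Vehicle range and WCE 1 lay within it or next to it. Without Vehicle 3 and WCE 1 the log2 fold changes were 0.94 for ZEB1 and -0.88 for OVOL2. KLF5 was the most abundant regulator, at 46.2 to 47.9 FPKM in Vehicle and 39.6 to 45.8 FPKM in WCE. Of 22 cornified envelope and squamous genes, 14 were tested and 1, CNFN, had an unadjusted p under 0.05 and a lower WCE mean (log2 fold change -0.65, adjusted p = 0.623, and -0.68 without Vehicle 3 and WCE 1), while SFN was the most abundant at 150 to 238 FPKM and the median log2 fold change was 0.054. After adjustment 0 of the genes of these 4 lists passed 0.05. Without Vehicle 3 and WCE 1 the genes under an unadjusted 0.05 were 4 higher and 0 lower among the intermediate filament genes, 6 and 1 among the linkers, 1 and 5 among the regulators, and 0 and 3 among the squamous genes.

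KRT5, KRT14 and KRT17 had the same extreme tumors as TP63, the regulator of basal epithelial cells, and KRT15 did not. TP63 stood at 8.49, 8.44 and 12.3 FPKM in Vehicle 1 to 3 and at 11.8, 3.07 and 6.32 FPKM in WCE 1 to 3. It had its highest values in Vehicle 3 and WCE 1 and its lowest in WCE 2, as KRT5, KRT14, KRT17, KRT6A and KRT16 had, and ordered the tumors as KRT16 did. KRT15 was instead highest in WCE 3 and WCE 2. The log2 fold change of TP63 was -0.55 (SE 0.38, adjusted p = 0.657) by limma, and -0.79 without Vehicle 3 and WCE 1, where its unadjusted p was under 0.05.

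Markers of cell types were compared with the labels. By limma, an unadjusted p was under 0.05 for 2 of 4 tested epithelial, 1 of 3 prostate luminal and 1 of 4 prostate basal markers. It was under 0.05 for 1 of 3 fibroblast, 1 of 2 endothelial and 0 of 1 leukocyte markers, beside 7.10% of all entries tested. Without Vehicle 3 and WCE 1 that background was 18.4%. The epithelial markers EPCAM and CDH1 were present in every tumor, with log2 fold changes of -0.73 and -0.47, both under an unadjusted 0.05 and both with adjusted p = 0.623, while KRT8 and KRT18 differed by 0.05 and 0.10. Without Vehicle 3 and WCE 1 the log2 fold changes were -1.08 for EPCAM and -0.68 for CDH1. Of 7 prostate luminal markers, KLK3 and KLK2 were at 0 in every tumor, whereas HOXB13 was at 61.5 to 135 FPKM and under an unadjusted 0.05 (log2 fold change 0.57, adjusted p = 0.623, and 0.84 without Vehicle 3 and WCE 1). TMPRSS2, a protease gene of luminal cells, was at 9.94 to 26.1 FPKM. The 4 prostate basal markers summed to 81.1 to 296 FPKM in Vehicle and 90.9 to 295 FPKM in WCE.

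Other cells of the tumor can also carry reads, and their part in the keratin values was not tested. The 6 fibroblast markers summed to 42.1 to 56.4 FPKM in Vehicle and 12.8 to 55.9 FPKM in WCE, with the lowest sum in WCE 2. In WCE 2, KRT5, KRT14 and KRT17 had their lowest values and the basal keratin KRT15 was above every Vehicle tumor. A link of these keratins to the fibroblast markers was not tested. COL1A1 carried most of the fibroblast sum, while COL1A2 was at 0.0513 to 0.628 FPKM, and DCN and PDGFRB were below 0.2 FPKM in every tumor. LUM had the 1 unadjusted p under 0.05 by limma (log2 fold change -0.85, adjusted p = 0.623). The 5 endothelial markers summed to 1.11 to 3.34 FPKM in Vehicle and 3.12 to 7.56 FPKM in WCE, with EMCN at 0 and CDH5 and TEK below 0.1 FPKM. PECAM1, the most abundant by its mean, was at 0.860 to 2.95 FPKM in Vehicle and 2.05 to 2.48 FPKM in WCE (log2 fold change 0.14). KDR was the 1 marker under an unadjusted 0.05 by limma (log2 fold change 1.14, adjusted p = 0.623). It stood at 0.216, 0.247 and 0.529 FPKM in Vehicle 1 to 3 and at 0.559, 1.59 and 5.12 FPKM in WCE 1 to 3. The 5 leukocyte markers summed to 25.6 to 41.2 FPKM in Vehicle and 40.2 to 44.4 FPKM in WCE, nearly all of it CD68, while PTPRC stayed below 0.7 FPKM. Without Vehicle 3 and WCE 1 the log2 fold changes were -1.31 for LUM and 1.69 for KDR. How reads of the mouse host were treated is not given in the sources used here.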

How the data were processed

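RNA of 6 PC-3 tumors grown in nude mice, 3 given Vehicle and 3 given WCE, was sequenced from TruSeq stranded mRNA libraries. The authors deposited FPKM values of 24000 entries, 1 column per tumor. The submitters' processing notes name TopHat2 2.0.13, Cufflinks, and the builds hg19 and mm10, without roles. Loci are those of the table, counted from 1. How shared or antisense reads were assigned, and any scaling between tumors, are not given in the sources used here. Columns were matched to tumors by the labels.

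Values were changed to log2(FPKM + 1), so fold changes of low genes are understated, and entries with a mean of at least 0.5 FPKM were kept. WCE was set against Vehicle by limma 3.58.1 (R 4.3.3), two-sided and with its trend option, and Benjamini-Hochberg adjustment ran over all 13287 entries tested at a threshold of 0.05. The script was tested on simulated data of independent tumors. These held no nearly identical pair, so the test does not bear on the effect of such a pair. P-values rest on the spread between the tumors of a group as labelled, 3 a group or fewer where tumors were left out. They take the tumors as independent, which the nearly identical Vehicle 3 and WCE 1 put in doubt.

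Keratins with a mean of at least 0.5 FPKM were named, with each tumor's value where the mean was at least 5 and otherwise as ranges. Untested keratins were named where a tumor reached 0.5 FPKM, and the silent ones and KRT6C were named after their values were seen. Of the other lists, genes with an unadjusted p under 0.05 and the most abundant gene were named. TP63, TMPRSS2, COL1A1, CD68 and some of the markers at or near 0 were named once values were known. The members and lists were chosen with earlier results of these data known. Coding sequences (longest open reading frames, GENCODE 29) were aligned with Biopython 1.88, and promoter windows came from RefSeq, where 21 keratins had no entry. Results were recomputed with another pseudocount, filter, scaling and trend setting, a replicate block, each tumor left out, and Vehicle 3 with WCE 1 left out. Relative depth is the commonest ratio of low values to those of Vehicle 3. Without counts no counting intervals can be given. A marker and a sequence withheld for evaluation are not reported here.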

Additional observations from a re-analysis of the deposited data

How the results depend on the processing

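Values of the low keratins are limited by depth, most of all in WCE 1, and the table holds no counts. With 3 tumors a group and a nearly identical pair of libraries across the groups, calls depended on which tumors entered. The number of keratins with an unadjusted p under 0.05 was 1 with all tumors, 0 to 8 when 1 tumor was left out (8 without WCE 1, 0 without WCE 3), 4 without Vehicle 3 and WCE 1, 2 with no filter on low values, 3 after quantile normalization and 2 with no mean-variance trend. Over all entries the count was 944 with all tumors, 219 to 2033 with 1 tumor left out and 2449 without Vehicle 3 and WCE 1. At an adjusted p under 0.05 it was 1 entry with all tumors, 1 to 7 with 1 left out, 5 without Vehicle 3 and WCE 1 and 0 with no filter, and 0 keratins in every one of these fits. Of the other list genes, 6 passed an unadjusted 0.05 with all tumors, 1 to 19 with 1 left out, 20 without Vehicle 3 and WCE 1 and 0 with no filter. The cause of these changes was not tested.

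The median log2 fold change of the keratins ran from -0.36 to 0.084 with 1 tumor left out, and was above 0 without Vehicle 3 (0.067) and without WCE 2 (0.084). The log2 ratio of KRT18 to KRT8 differed between groups by -0.0049 to 0.079, below 0 without WCE 2. Of the 21 tested keratins, 9 kept their sign in all 6 such fits, among them KRT15 (0.46 to 0.74), KRT75 (0.27 to 0.65), KRT7 (-0.50 to -0.22) and KRT81 (-0.82 to -0.25). The 12 that crossed 0 were KRT14 (-2.34 to 0.052), KRT17 (-1.35 to 0.054), KRT18 (-0.0093 to 0.20), KRT19 (-0.20 to 0.13), KRT23 (-0.12 to 0.34), KRT4 (-0.19 to 0.36), KRT5 (-1.20 to 0.61), KRT6A (-0.99 to 0.48), KRT6B (-0.59 to 0.11), KRT79 (-0.22 to 0.35), KRT8 (-0.057 to 0.14) and KRT86 (-0.63 to 0.066). KRT4 also turned to -0.036 at a pseudocount of 0.1. The labels number tumors 1 to 3 in each group without saying that numbers pair them. The deviations of same-numbered tumors from their group means correlated at -0.24 to 0.16. With 3 tumors a group and Vehicle 3 nearly identical to WCE 1, these correlations cannot decide whether the numbers pair tumors. With a replicate block, limma called 1049 entries and 1 keratin, KRT15 (log2 fold change 0.58), at an unadjusted p under 0.05.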
